A study of Mus musculus with 4 samples.

Results

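S100 proteins are small calcium-binding proteins, and the genes of 8 of them were followed through the cell types of mouse bone marrow. S100a8, S100a9, S100a4, S100a6, S100a10, S100a11, S100a13 and S100a1 were chosen by name, with earlier results of these data known. The data hold 32285 genes, of which 18 have a symbol that begins with S100. All 6 mice were female, 6 weeks old by the labels, and carried Tppp3CreER and LSLTdTomato, a Cre recombinase that tamoxifen activates in cells using the Tppp3 promoter and a tdTomato reporter that Cre switches on. Tamoxifen alone went to 2 mice at postnatal days 0 and 3 (the tamoxifen group), and another 2 got tamoxifen plus rapamycin, an inhibitor of the growth-promoting kinase complex mTORC1, on those days. The remaining 2 mice were given rapamycin at postnatal day 30 and no tamoxifen (late rapamycin), so no group was untreated. The design text also speaks of isolation after 2 weeks, which the stated age does not match. Reporter and Cre were not among the genes counted, so cells that Cre had marked could not be picked out.

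One mouse of each treatment carried its own hashtag antibody, and the 3 were pooled in 1 droplet run on each of 2 days, so a replicate number names a day. Lin-Sca+Kit+ and Lin-Sca-Kit+ sorted cells and whole marrow were mixed in proportions the labels do not give, which means that numbers of cells of a type are not those of the marrow. The hashtag table assigns hashtags 1 and 4 to tamoxifen with rapamycin, 2 and 5 to tamoxifen, and 3 and 6 to "Ctrl", which was read as late rapamycin. The labels number the tamoxifen mice 1 and 4. Should those be hashtag numbers, the treatments of these 4 mice are exchanged.

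After removal of multiplets and poor cells, 33228 cells were used, 5208 to 6114 per mouse with 21602920 to 34732359 unique molecular identifiers (UMIs, counted RNA molecules) per mouse. Among them 52 barcodes occurred on both days. Cells were assigned to gates by how many marker genes of a lineage they expressed (Procr and Hlf for stem-like cells, Elane and Mpo for neutrophil progenitors, Ltf and Camp for myelocytes, Cxcr2 and Il1b for mature neutrophils, Csf1r and Ccr2 for monocytes, for example). No S100 gene served as a marker. The least number of markers was set after marker counts had been seen, and each gate is a range of a marker score, not a purified type. At least 50 cells in each mouse fell into 9 gates, with 2887 stem-like, 3171 Flt3 progenitor, 2761 neutrophil progenitor-like, 3297 myelocyte-like, 1101 mature neutrophil-like, 1209 monocyte-like, 2126 early B-like, 3081 erythroid-like and 469 megakaryocyte-like cells. Cells that missed a gate by 1 marker numbered 290 (erythroid) to 3465 (Flt3 progenitor), and 12220 cells met no gate. Every marker of the 9 gates was at least 2-fold above the other gates pooled, except 1 of 8 of the neutrophil progenitor gate. The same markers had placed the cells, so these folds do not test the gates. Levels are given as CPM, the UMIs of a gene per 1000000 UMIs of a mouse's cells in the gate. The unit of replication was the mouse.

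Late rapamycin replicate 1 stood apart. It had 1003 neutrophil progenitor-like and 1154 myelocyte-like cells against 230 to 457 and 366 to 468 in the other 5 mice, and 56 early B-like cells against 288 to 608. Most values that rest on this mouse are given with and without it, and some by day instead.

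S100 proteins bind calcium through paired EF-hand motifs, mostly work as dimers, and on binding calcium expose a surface that grips partner proteins. S100A8 and S100A9 pair to form calprotectin, an abundant protein of neutrophil cytosol that withholds metal ions from microbes and, once released, signals through TLR4 and RAGE. S100A10 differs from its relatives in that it no longer binds calcium and forms a complex with annexin A2 at membranes, whereas S100A4 binds non-muscle myosin and S100A6 and S100A11 bind annexins and other partners.

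All 8 genes lie on mouse chromosome 3 (GRCm38, GENCODE vM21) in 2 stretches. S100a1 (chr3:90511034-90514392, minus strand), S100a13 (chr3:90514435-90524581, plus), S100a4 (chr3:90603771-90606045, plus), S100a6 (chr3:90612882-90624181, plus), S100a8 (chr3:90668978-90670035, plus) and S100a9 (chr3:90692632-90695721, minus) span 184.7 kb. S100a11 (chr3:93520488-93526287, plus) and S100a10 (chr3:93555080-93564643, plus) lie a further 2825 kb along. S100a4 overlaps the gene Gm42674, so its reads may be shared with that gene.

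The promoters of 5 genes with a wide range between gates are shown because those genes carry the lineage pattern described after them. They are taken from RefSeq (GRCm38.p6), 5′ to 3′ on the strand of the gene and ending before the annotated first exon. The windows are chr3:90668821-90668977 (S100a8), chr3:90695722-90695971 (S100a9), chr3:93520246-93520487 (S100a11), chr3:90612644-90612881 (S100a6) and chr3:90603520-90603769 (S100a4). Capitals mark matches, on either strand, to 2 motifs, TTGCNNAA for the granulocyte factor C/EBP and GAGGAA for the factor PU.1. Matches to one did not overlap matches to the other in the letters printed.
S100a8: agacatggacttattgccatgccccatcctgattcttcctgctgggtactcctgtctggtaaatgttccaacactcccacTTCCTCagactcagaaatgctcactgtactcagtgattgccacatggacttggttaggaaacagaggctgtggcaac
S100a9: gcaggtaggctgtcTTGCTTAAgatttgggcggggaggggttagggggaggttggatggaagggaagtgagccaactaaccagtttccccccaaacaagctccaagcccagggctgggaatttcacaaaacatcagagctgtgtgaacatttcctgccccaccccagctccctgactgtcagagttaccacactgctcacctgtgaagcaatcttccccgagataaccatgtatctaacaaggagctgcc
S100a11: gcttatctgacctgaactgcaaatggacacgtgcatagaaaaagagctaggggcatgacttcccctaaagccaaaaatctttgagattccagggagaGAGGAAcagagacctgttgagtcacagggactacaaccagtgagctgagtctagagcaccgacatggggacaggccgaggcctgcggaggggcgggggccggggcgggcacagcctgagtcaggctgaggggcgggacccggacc
S100a6: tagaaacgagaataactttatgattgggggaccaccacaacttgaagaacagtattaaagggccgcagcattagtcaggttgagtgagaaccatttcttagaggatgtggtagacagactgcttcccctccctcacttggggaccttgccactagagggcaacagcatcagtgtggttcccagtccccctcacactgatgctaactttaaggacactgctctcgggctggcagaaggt
S100a4: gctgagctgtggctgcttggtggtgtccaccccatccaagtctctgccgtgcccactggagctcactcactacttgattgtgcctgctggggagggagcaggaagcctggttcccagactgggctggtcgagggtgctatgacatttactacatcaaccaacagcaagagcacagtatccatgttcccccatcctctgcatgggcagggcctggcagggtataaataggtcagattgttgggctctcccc
RefSeq promoters of 7 of the 8 genes could be read. In the 250 bases before the start, the C/EBP-type letters were found in 1 of these 7, S100a9, and in 9.56% of 32851 promoters of the same length. The PU.1-type letters were found in 2 of the 7, S100a8 and S100a11, and in 23.3% of all. One of the matches before S100a8 lies past the stretch printed. A match describes the letters only, and a window without one says only that these letters are not in it.

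S100a8 and S100a9, which encode calprotectin, were at their highest in the myelocyte-like and mature neutrophil-like gates, S100a4 and S100a10 in the monocyte-like gate, S100a6 and S100a11 in the mature neutrophil-like gate and S100a1 in the megakaryocyte-like gate. S100a13 was spread most evenly and was at its highest in the monocyte-like and myelocyte-like gates. The plot of levels by gate shows that each gene had its own order of gates. Between neighbours in those orders, all 6 mice had the same direction in 33 of 64 pairs, and in 31 the mice pointed both ways. An exact sign-flip test over 6 mice cannot go below a two-sided p of 0.03125. With 33 of the 64 pairs at that value, the smallest adjusted p (Benjamini-Hochberg) was 0.0606, so no neighbouring pair passed by this test.

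**Figure D1:**
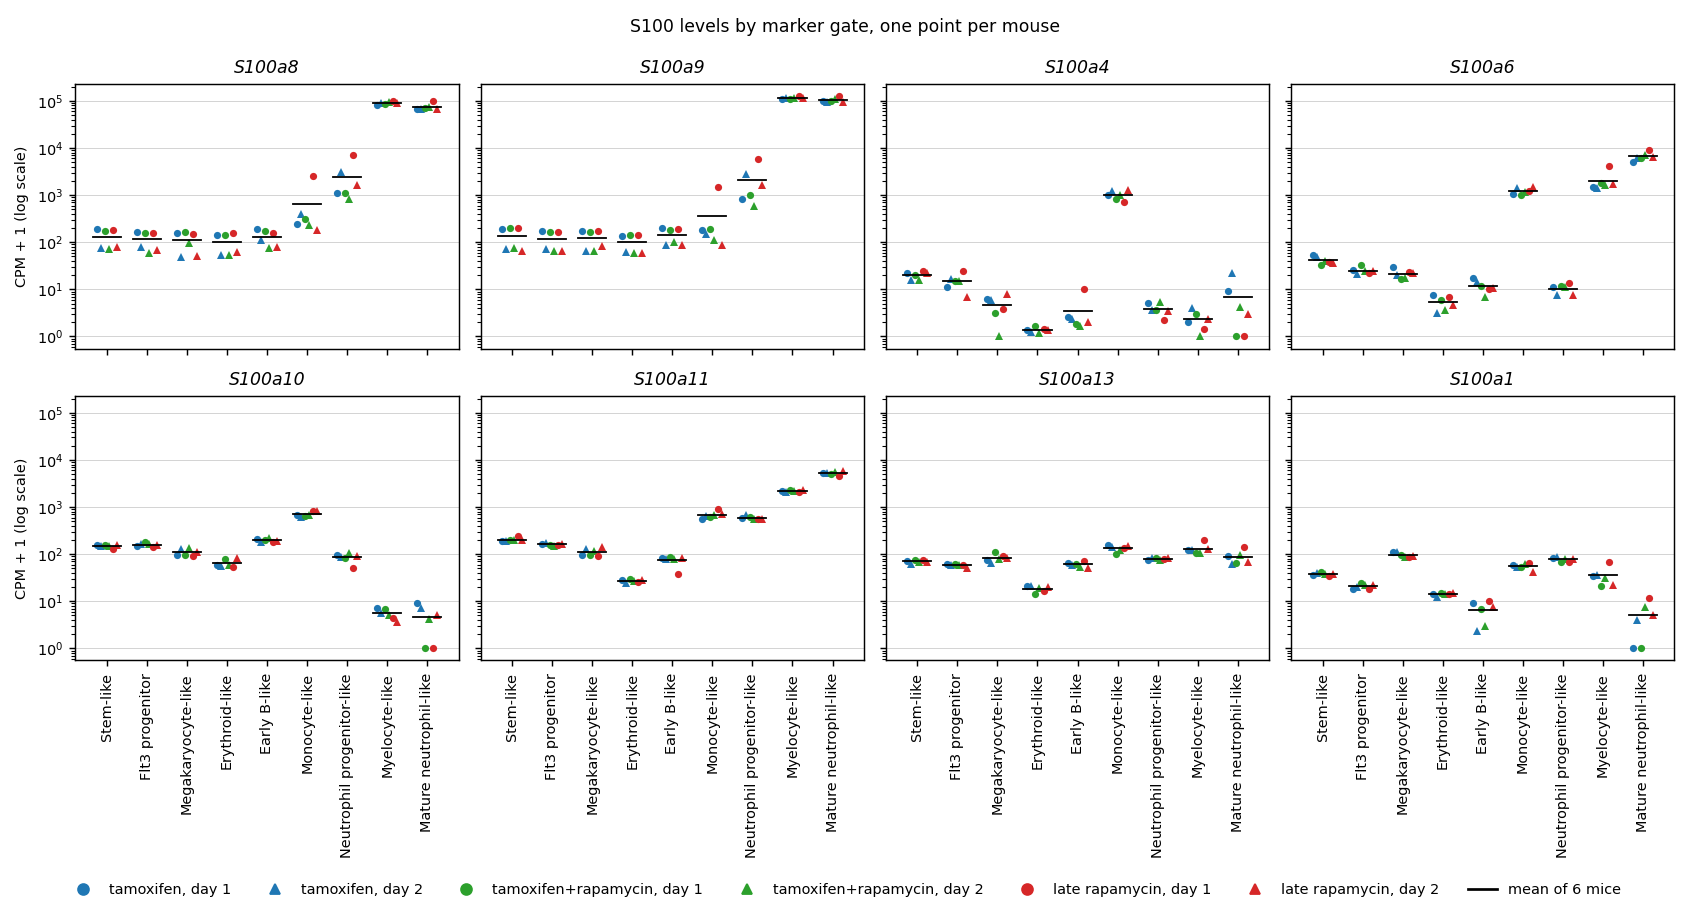
Level of each S100 gene (CPM + 1, log axis) in the 9 marker gates, with 1 point per mouse coloured by treatment and a black line at the mean of 6 mice. S100a8 and S100a9 stand at or above 65819 CPM in the myelocyte-like and mature neutrophil-like gates and fall to between 48.7 and 202 CPM in the stem-like, Flt3 progenitor, early B-like, erythroid-like and megakaryocyte-like gates.

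Gates were then compared along 8 steps of blood formation, in edgeR over all genes with the mouse as a block (6 mice per step). Of 62 gene and step pairs tested, 49 passed the threshold of 0.05 on the Benjamini-Hochberg adjusted p. Many genes differ between cell types, and the share of all genes that passed is given with each count. From the stem-like to the neutrophil progenitor-like gate, 5 of 8 genes were higher and 3 lower, where 37.4% of all genes were higher and 39.9% lower. From there to the myelocyte-like gate 5 were higher and 1 lower (36.1% and 45.3% of all genes). The median log2 change of the 8 genes at that step was 2.03, against -0.22 for all genes. Between the mature neutrophil-like and myelocyte-like gates, 2 of the 6 genes with enough counts were higher and 3 lower (26.3% and 31.6%). In the monocyte-like against the neutrophil progenitor-like gate 4 were higher and 3 lower (32.5% and 33.1%). At the steps from the stem-like gate to the erythroid-like, megakaryocyte-like and Flt3 progenitor gates, lower calls outnumbered higher ones. In the erythroid-like gate none was higher and 6 of 8 were lower (40.6% and 45.5%), with a median log2 change of -1.28 against -0.10 for all genes. In the megakaryocyte-like gate 2 were higher and 4 lower (26.3% and 26.9%). In the Flt3 progenitor gate 1 was higher and 3 lower (20.2% in each direction). From the Flt3 progenitor to the early B-like gate 3 were higher and 4 lower (28.4% and 31.7%).

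**Figure D2:**
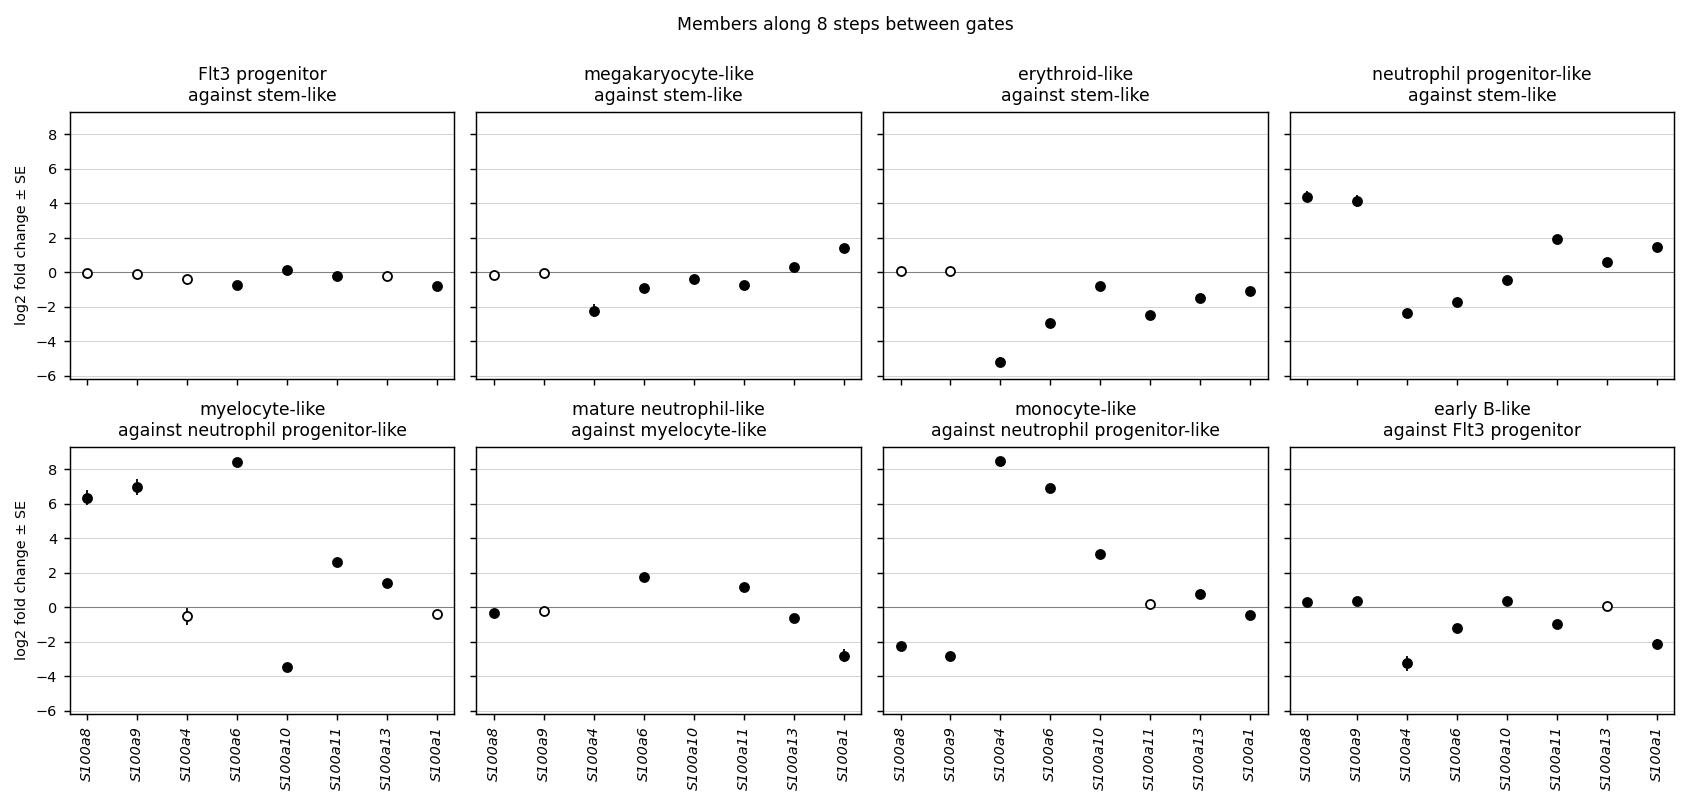
Log2 fold change of each S100 gene at the 8 steps (points, edgeR) with its standard error (bars), filled where the adjusted p passed 0.05 and open where it did not. The largest rises are those of S100a4 in the monocyte-like gate (8.48) and of S100a6 in the myelocyte-like gate (8.43), and the largest fall is that of S100a4 in the erythroid-like gate (-5.19).

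Summed over the cells of a gate, calprotectin RNA rose in 2 stages along the neutrophil line. S100a8 was at 835, 1393 and 6974 CPM (lowest, median and highest of 6 mice) in the neutrophil progenitor-like gate. In the myelocyte-like gate it was at 80746, 91200 and 98643 CPM, and in the mature neutrophil-like gate at 65819, 68852 and 101125 CPM. The lowest mouse of each later gate was thus far above the highest of the progenitor gate. The progenitor level was not spread evenly over cells. In that gate the median cell had 7 UMIs of S100a8 in late rapamycin replicate 1 and 1 UMI in the other mice. The 10% of cells with the most S100a8 held 60.7% to 94.5% of its UMIs. Late rapamycin replicate 1 was the highest mouse in all 3 gates, and without it the progenitor mean was 1558 ± 897 CPM (SD, n = 5) in place of 2461 ± 2352 (SD, n = 6). In edgeR, S100a8 was higher in the neutrophil progenitor-like than in the stem-like gate by 4.39 on the log2 scale (SE 0.319, adjusted p = 1.64e-09; 4.15 without that mouse). It was higher again in the myelocyte-like gate, by 6.37 (SE 0.428, edgeR adjusted p = 4.21e-09; 6.72 without that mouse). It was then lower in the mature neutrophil-like gate by a log2 change of -0.33 (SE 0.104, edgeR adjusted p = 0.00731), a call that was lost when the mouse was not taken as a block.

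S100a9 followed the same course. Its level was 591, 1338 and 5761 CPM (lowest, median and highest) in the neutrophil progenitor-like gate, 108610, 114060 and 128200 in the myelocyte-like gate and 93445, 99620 and 129195 in the mature neutrophil-like gate. The last 2 of these gates overlapped. The first 2 steps passed in edgeR, at 4.12 (SE 0.355, adjusted p = 1.49e-08; 3.91 without late rapamycin replicate 1) and 6.97 (SE 0.468, adjusted p = 4.2e-09; 7.32 without it). The third did not, at -0.20 (SE 0.101, edgeR adjusted p = 0.094), though it passed in the same direction under 5 alternatives, among them DESeq2 and the fit without late rapamycin replicate 1 (-0.26 in both). Both genes together took 20.6% ± 1.29 of all UMIs in the myelocyte-like gate and 17.8% ± 2.68 in the mature neutrophil-like gate (SD, n = 6). Their share was 0.457% ± 0.431 in the progenitor gate. Such a share lowers the CPM of every other gene in those gates. With both genes left out of the total, S100a13 was at 163 CPM in the myelocyte-like gate and 134 CPM in the monocyte-like gate, which reverses the order of those 2 gates, while the other 7 genes kept their highest gate.

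The balance of both RNAs shifted between gates. There were 1.20 ± 0.164 UMIs of S100a8 per UMI of S100a9 in the neutrophil progenitor-like gate (1.02 to 1.41 over 6 mice). The myelocyte-like gate had 0.780 ± 0.0290 (0.743 to 0.814) and the mature neutrophil-like gate 0.711 ± 0.0396 (0.671 to 0.783). The progenitor range lay above those of both later gates, which overlapped each other. A UMI ratio can differ from a ratio of molecules, since each transcript is captured with its own efficiency, so only its change between gates is read here.

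In the monocyte-like gate, S100a8 was at 179, 278 and 2593 CPM and S100a9 at 85.0, 166 and 1476 CPM (lowest, median and highest). The highest mouse for both was late rapamycin replicate 1, and the other 5 reached 387 and 189 CPM. Against the neutrophil progenitor-like gate both were lower in edgeR, S100a8 by a log2 change of -2.22 (SE 0.172, adjusted p = 5.85e-09; -2.44 without that mouse) and S100a9 by -2.84 (SE 0.241, adjusted p = 1.97e-08; -3.13 without it). All 8 myelocyte markers were counted in this gate, and their summed level was 3138 CPM in late rapamycin replicate 1 against 434 to 1215 CPM in the other mice. Their part in the S100a8 and S100a9 counts of the monocyte-like gate was not tested. The ratio was 1.92 ± 0.416 UMIs of S100a8 per UMI of S100a9 (SD, n = 6; 1.38 to 2.55), above the range of the myelocyte-like gate. S100a8 was higher in the monocyte-like than in the early B-like gate, the next in the order, in 6 of 6 mice and S100a9 in 4 of 6.

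S100a8 and S100a9 were also counted in gates whose cells are not known for calprotectin. In droplet data, RNA that floats free in the suspension is counted in every droplet, and genes that abundant cells express strongly are a large part of it. The stem-like, Flt3 progenitor, early B-like, erythroid-like and megakaryocyte-like gates had S100a8 means from 102 ± 49.7 CPM (erythroid-like) to 130 ± 49.6 CPM (early B-like) and S100a9 means from 98.4 ± 42.9 to 141 ± 53.9 CPM (SD, n = 6). For S100a8, neighbours among these 5 gates did not keep their order, with 3 to 5 of 6 mice in the direction of the means. For S100a9 the same held with 4 or 5 of 6 mice, except for 1 pair. Its level was higher in the Flt3 progenitor than in the erythroid-like gate in 6 of 6 mice. In edgeR neither gene passed between the stem-like gate and the Flt3 progenitor gate (-0.06 for S100a8 and -0.08 for S100a9), the erythroid-like gate (0.08 and 0.05) or the megakaryocyte-like gate (-0.16 and -0.06). Levels also differed between days. Over 5 gates and 3 mice a day, S100a8 was at 138 to 191 CPM on day 1 (median 159) and 48.7 to 112 CPM on day 2 (median 71.1). S100a9 was at 133 to 202 CPM on day 1 (median 171) and 57.5 to 100 CPM on day 2 (median 65.4). The days did not overlap for either gene, and the ratio of the day means was 2.32 for S100a8 and 2.41 for S100a9. Both genes together took 2.38% of the UMIs of all kept cells on day 1 and 1.39% on day 2. The 3 neutrophil gates held 92.9% and 91.6% of the S100a8 UMIs of the 2 days in 24.4% and 18.5% of the cells.

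**Figure D3:**
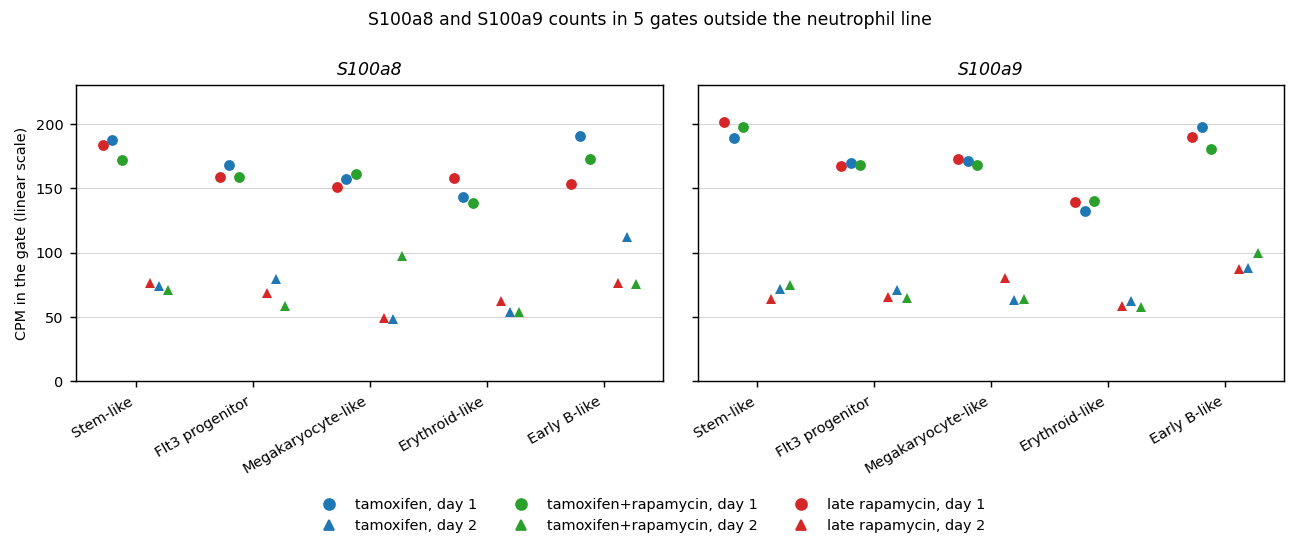
Level of S100a8 and S100a9 (CPM, linear axis) in the 5 gates of cells that are not neutrophils or monocytes, with circles for the mice of day 1 and triangles for those of day 2, coloured by treatment. Every circle lies above every triangle, at 138 or more against 112 or less for S100a8 and 133 or more against 100 or less for S100a9.

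The ratio of S100a8 to S100a9 was much alike in the 5 gates, and among ratios to other neutrophil genes that of Elane was less so. S100a8 UMIs per S100a9 UMI, pooled over both days, were 0.993 (95% interval 0.911 to 1.08) in the stem-like, 0.975 (0.908 to 1.05) in the Flt3 progenitor, 0.930 (0.831 to 1.04) in the early B-like, 1.02 (0.974 to 1.07) in the erythroid-like and 0.914 (0.773 to 1.08) in the megakaryocyte-like gate. These intervals overlap and cover counting error only. The 5 ratios themselves lie between the 0.778 of the myelocyte-like gate and the 1.19 of the neutrophil progenitor-like gate, and above the 0.795 and 0.793 of all kept cells on days 1 and 2. Per 100 UMIs of S100a8, the myelocyte gene Ngp had 22.8 to 27.3 UMIs in the 5 gates, against 47.1 in the myelocyte-like, 11.8 in the progenitor and 7.20 in the mature neutrophil-like gate. The progenitor gene Elane had 33.3 UMIs per 100 of S100a8 in the Flt3 progenitor gate (95% interval 30.0 to 36.8) and 16.2 in the erythroid-like gate (14.8 to 17.8), intervals that do not overlap, with the other 3 gates from 14.5 to 20.7. It had 220 in the neutrophil progenitor-like gate and 0.0931 in the myelocyte-like gate. The progenitor gate differed by day, with 163 UMIs of Elane on day 1 and 525 on day 2, and 10.2 and 20.1 of Ngp. Day 1 is that of late rapamycin replicate 1. The monocyte-like gate lay outside the range of the 5 gates with a pooled ratio of 1.78 and 2.76 UMIs of Ngp per 100 of S100a8. Late rapamycin replicate 1 held 4240 of the 5075 S100a8 UMIs pooled there. On day 2, without that mouse, the monocyte-like gate had a ratio of 2.28 and 8.06 UMIs of Ngp per 100 of S100a8. Which cells the RNA in the 5 gates came from was not tested.

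**Figure D4:**
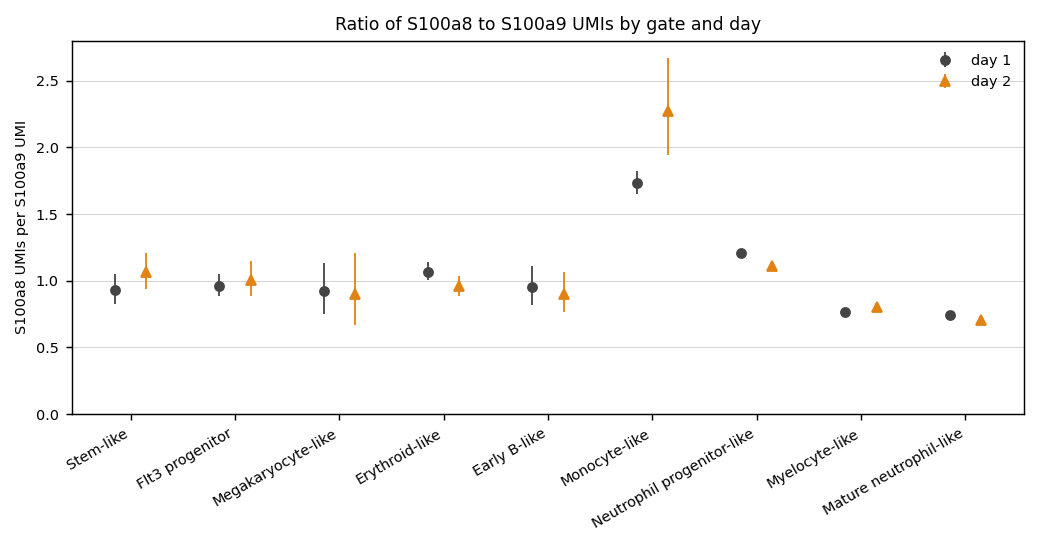
UMIs of S100a8 per UMI of S100a9 by gate and day (points) with 95% intervals from counting error (bars). The stem-like, Flt3 progenitor, early B-like, erythroid-like and megakaryocyte-like gates have pooled ratios from 0.914 to 1.02, the neutrophil progenitor-like and monocyte-like gates lie above them (1.19 and 1.78) and the myelocyte-like and mature neutrophil-like gates below (0.778 and 0.720).

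Shares of cells with a UMI depend on depth, so cells were thinned to 2000 UMIs each. S100a8 was then seen in 19.9% of stem-like (exact 95% interval 18.4% to 21.4%), 21.3% of Flt3 progenitor, 18.2% of early B-like, 17.2% of erythroid-like and 19.8% of megakaryocyte-like cells. Unthinned shares were 29.5%, 36.7%, 24.1%, 63.4% and 43.7%, in the same order as the median depths, which ran from 1556.5 UMIs per early B-like cell to 11445 per erythroid-like cell. Thinning left out 260 stem-like, 84 Flt3 progenitor, 1340 early B-like, 10 erythroid-like and 5 megakaryocyte-like cells. At the same depth S100a8 was seen in 100% of myelocyte-like and mature neutrophil-like cells, 44.1% of neutrophil progenitor-like and 34.3% of monocyte-like cells. The last 2 shares pool all mice, and late rapamycin replicate 1 gave 1003 of 2761 and 350 of 1209 cells of these gates before thinning. The mean was 306.7 UMIs per myelocyte-like cell and 0.363 per stem-like cell. The shares of the 5 gates pool 2 days whose levels differed, and no expression of S100a8 by these cells is read from them. In edgeR S100a8 and S100a9 passed as higher in the early B-like than in the Flt3 progenitor gate, by log2 changes of 0.29 (SE 0.0952, adjusted p = 0.0109) and 0.37 (SE 0.0962, adjusted p = 0.00201). In CPM the early B-like gate was above the Flt3 progenitor gate in 5 of 6 mice for S100a8 and in 6 of 6 for S100a9. These gates differ in depth, with medians of 1556.5 UMIs per early B-like and 3754 per Flt3 progenitor cell. Grouped by depth, the deepest early B-like cells had 0.538 (day 1) and 0.476 (day 2) times the S100a8 CPM of the shallowest. For Flt3 progenitor cells the values were 0.770 and 0.750. Whether depth accounts for the calls in edgeR was not tested. The thinned shares of S100a8 went the other way (18.2% against 21.3%), but they pool the days in unlike parts (793 of 2126 early B-like and 1738 of 3171 Flt3 progenitor cells were from day 1), and no order is read from them.

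S100a6 and S100a11, both annexin-binding members, increased at each later step of the neutrophil line. S100a6 was almost absent from the neutrophil progenitor-like gate, at 6.45, 10.0 and 12.9 CPM (lowest, median and highest). It was at 1432, 1678 and 4085 CPM in the myelocyte-like gate and 5059, 6238 and 9108 CPM in the mature neutrophil-like gate. The 3 gates did not overlap. In edgeR S100a6 was first lower in the progenitor than in the stem-like gate by a log2 change of -1.70 (SE 0.171, adjusted p = 1.04e-07). It was then higher by 8.43 in the myelocyte-like gate (SE 0.185, adjusted p = 1.24e-13; 8.24 without late rapamycin replicate 1) and by a further 1.77 in the mature neutrophil-like gate (SE 0.112, adjusted p = 4.34e-14). At 2000 UMIs per cell it was seen in 1.99% of progenitor, 73.3% of myelocyte-like and 100% of mature neutrophil-like cells.

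S100a11 was counted throughout. Its level was 185, 195 and 248 CPM in the stem-like gate and 552, 570 and 691 CPM in the neutrophil progenitor-like gate. It reached 2117, 2185 and 2348 CPM in the myelocyte-like and 4547, 5291 and 5720 CPM in the mature neutrophil-like gate. None of these 4 gates overlapped another. The 3 steps passed in edgeR with log2 changes of 1.95 (SE 0.0725, adjusted p = 3.56e-13), 2.63 (SE 0.106, adjusted p = 1.92e-11) and 1.20 (SE 0.0967, adjusted p = 8.35e-12). Unlike S100a6, S100a11 did not first go down at the progenitor step.

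Outside the neutrophil line, both genes were high in the monocyte-like gate, where S100a6 was at 1226 ± 186 CPM and S100a11 at 686 ± 124 CPM (SD, n = 6). S100a6 was higher there than in the neutrophil progenitor-like gate by 6.92 (SE 0.142, edgeR adjusted p = 2.79e-16), whereas S100a11 did not pass (0.21, SE 0.0917, edgeR adjusted p = 0.0583, and 0.25 to 0.28 in 3 fits that left out 1 mouse, tamoxifen replicate 1 or 2 or tamoxifen with rapamycin replicate 1, and passed). Both were lowest in the erythroid-like gate, at 4.30 ± 1.81 and 26.3 ± 2.10 CPM, with log2 changes from the stem-like gate of -2.94 and -2.50 that passed in edgeR. In the megakaryocyte-like gate both passed as lower than in the stem-like gate (-0.92 and -0.76), and in the early B-like gate as lower than in the Flt3 progenitor gate (-1.18 and -0.95). Both were also lower in the Flt3 progenitor than in the stem-like gate, S100a6 by -0.72 (SE 0.127, edgeR adjusted p = 2.26e-05) and S100a11 by -0.23 (SE 0.0592, edgeR adjusted p = 0.00172).

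S100a4, the myosin-binding member, was the gene most concentrated in 1 gate. It was at 717, 1001 and 1273 CPM (lowest, median and highest) in the monocyte-like gate. The next was the stem-like gate at 14.8, 20.3 and 23.6 CPM, followed by the Flt3 progenitor gate at 5.75, 14.1 and 23.7 CPM, which overlapped it. The monocyte-like gate was far above both. In edgeR S100a4 was higher in the monocyte-like than in the neutrophil progenitor-like gate by 8.48 (SE 0.132, adjusted p = 9.57e-18). At 2000 UMIs per cell it was seen in 77.4% of monocyte-like, 3.77% of stem-like, 2.62% of Flt3 progenitor and 0.0651% of erythroid-like cells. The range from stem-like to erythroid-like cells is not that of S100a8 and S100a9, whose shares were alike in these gates.

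Below the stem-like gate S100a4 counts were small. The mature neutrophil-like gate had 10 UMIs in all, and the neutrophil progenitor-like, early B-like and myelocyte-like gates means of 2.91, 2.43 and 1.30 CPM, so their order is not read. In the smaller mature B-like gate S100a4 was seen in 0 of 456 cells, which allows a share of cells with a UMI of up to 0.658% at their median depth of 1298 UMIs and sets no limit on expression below that. Against the stem-like gate S100a4 passed in edgeR as lower in the erythroid-like gate by a log2 change of -5.19 (SE 0.275, adjusted p = 3e-16), in the neutrophil progenitor-like gate by -2.39 (SE 0.262, adjusted p = 2.96e-07) and in the megakaryocyte-like gate by -2.23 (SE 0.392, adjusted p = 3.16e-06). From the Flt3 progenitor to the early B-like gate it was lower by -3.25 (SE 0.416, edgeR adjusted p = 3.85e-07).

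S100a10, the annexin A2 partner, ran opposite to calprotectin in the neutrophil line. It was at 49.9, 88.2 and 107 CPM (lowest, median and highest) in the neutrophil progenitor-like gate, where the lowest mouse was late rapamycin replicate 1. In the myelocyte-like gate it averaged 4.52 ± 1.41 CPM (SD, n = 6), from 44 UMIs in all, and in the mature neutrophil-like gate it had 6 UMIs. S100a10 was lower in the myelocyte-like than in the progenitor gate by a log2 change of -3.46 (SE 0.169, edgeR adjusted p = 1.33e-10; -3.60 without that mouse). At 2000 UMIs per cell it was seen in 13.8% of progenitor and 0.874% of myelocyte-like cells, and in 0 of 140 mature neutrophil-like cells.

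In other gates S100a10 was broadly present. It was highest in the monocyte-like gate at 615, 686 and 827 CPM, above every mouse of the other 8 gates, and was higher there than in the neutrophil progenitor-like gate by 3.11 (SE 0.135, edgeR adjusted p = 3.05e-12; 2.90 without late rapamycin replicate 1). The early B-like gate followed at 180, 195 and 219 CPM. The Flt3 progenitor and stem-like gates, at 158 ± 15.2 and 149 ± 11.1 CPM (SD, n = 6), kept their order in 4 of 6 mice only. The step from Flt3 progenitor to early B-like passed in edgeR with a log2 change of 0.37 (SE 0.0862, adjusted p = 0.000785). The step from stem-like to Flt3 progenitor passed narrowly with 0.16 (SE 0.0591, adjusted p = 0.0326) and was lost under 7 alternatives. S100a10 passed as lower than in the stem-like gate in the neutrophil progenitor-like (-0.43), megakaryocyte-like (-0.38) and erythroid-like gates (-0.81).

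Anxa2, which encodes the partner of S100A10, did not follow it. Anxa2 was at 1142 ± 213 CPM in the mature neutrophil-like gate, where S100a10 had 6 UMIs, and at 4.87 CPM in the early B-like gate, where S100a10 was second highest of the 9 gates. In edgeR Anxa2 was higher in the myelocyte-like than in the progenitor gate by 3.71 (SE 0.0983, adjusted p = 3.93e-13) and lower in the early B-like than in the Flt3 progenitor gate by a log2 change of -4.29 (SE 0.343, adjusted p = 1.38e-10), against -3.46 and 0.37 for S100a10. In the monocyte-like gate both were higher than in the progenitor gate (3.24 for Anxa2, SE 0.0985). Ahnak, a large scaffold protein that the complex of S100A10 and annexin A2 binds, was also higher there, by 8.05 (SE 0.128, edgeR adjusted p = 1e-17), with a level of 1232 ± 231 CPM against 4.78 CPM in the progenitor gate.

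S100a13, which takes part in the release of growth factors that lack a signal peptide, varied least. Its mean was 134 ± 21.2 CPM in the monocyte-like gate and 129 ± 33.7 CPM in the myelocyte-like gate (116 ± 10.9 without late rapamycin replicate 1, n = 5), and 4 of 6 mice had the first above the second. Means from 57.5 ± 3.57 CPM (Flt3 progenitor) to 87.4 ± 30.6 CPM (mature neutrophil-like) filled the middle, and the erythroid-like gate was lowest at 17.6 ± 2.89 CPM (log2 change from the stem-like gate -1.49, SE 0.106, edgeR adjusted p = 2.5e-13). In edgeR S100a13 was higher in the neutrophil progenitor-like than in the stem-like gate by 0.58 (SE 0.0799, adjusted p = 4.78e-06). It was higher again in the myelocyte-like gate by 1.44 (SE 0.12, adjusted p = 4.6e-08) and then lower in the mature neutrophil-like gate by -0.61 (SE 0.159, adjusted p = 0.00165), which was lost without the mouse block.

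S100a1, best known from heart and skeletal muscle, was highest in the megakaryocyte-like gate at 86.6, 92.6 and 112 CPM (lowest, median and highest). The neutrophil progenitor-like gate came next at 66.3, 77.8 and 86.0 CPM, just below and without overlap. The stem-like gate was at 32.7, 36.9 and 40.3 CPM, below every mouse of these 2. In edgeR S100a1 was higher than in the stem-like gate by 1.44 in the megakaryocyte-like (SE 0.131, adjusted p = 9.66e-14) and by 1.45 in the neutrophil progenitor-like gate (SE 0.0917, adjusted p = 2.68e-10). It was lower in the Flt3 progenitor (-0.81, SE 0.117, edgeR adjusted p = 1.09e-06) and erythroid-like gates (-1.07, SE 0.113, edgeR adjusted p = 1.13e-09). In the neutrophil line it did not pass between progenitor and myelocyte-like gates (-0.41, SE 0.205, edgeR adjusted p = 0.0811), but did so without late rapamycin replicate 1 (-0.76, SE 0.124, edgeR adjusted p = 8.42e-08) and under 3 other alternatives. It was lower in the mature neutrophil-like gate by -2.80 (SE 0.396, edgeR adjusted p = 5.41e-07), where it had 8 UMIs in all. Of the 8 genes, S100a1 and S100a13 alone passed as higher in the megakaryocyte-like than in the stem-like gate, S100a13 with 0.30 (SE 0.124, edgeR adjusted p = 0.0381), a call lost under 7 alternatives.

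Among 10 other genes with S100 in their symbol only S100pbp, which encodes an S100P-binding protein, had enough counts for a test, with 5332 UMIs. The other 9 had 2 to 56 UMIs each over all kept cells. S100pbp fell at 4 of 8 steps (erythroid-like -1.11, neutrophil progenitor-like -1.08, myelocyte-like -1.12 and early B-like -0.34) and rose in the mature neutrophil-like gate (1.26) in edgeR. Of 14 genes listed as partners or receptors of S100 proteins, 10 or 11 were tested at each step. At the step to the myelocyte-like gate 7 were higher and 3 lower (36.1% and 45.3% of all genes), and at the step to the monocyte-like gate 7 were higher and 2 lower (32.5% and 33.1%). In the erythroid-like gate 4 were higher and 7 lower (40.6% and 45.5%). The receptor gene Tlr4 was at 65.0 CPM in the mature neutrophil-like, 31.0 in the myelocyte-like, 23.0 in the monocyte-like and 17.9 in the stem-like gate, and passed in edgeR as higher in the myelocyte-like (1.97) and mature neutrophil-like gates (1.06). Ager, which encodes the receptor RAGE, was at 4.62 CPM or less in every gate. Anxa1 was higher in the myelocyte-like gate by 4.90 and lower in the mature neutrophil-like gate by -1.17, so it fell at the step where S100a11 rose. Myh9, the heavy chain that S100A4 binds, was higher in the monocyte-like than in the progenitor gate by 1.42 (SE 0.0614, edgeR adjusted p = 3.05e-12).

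Further gates were too small in some mice for a comparison, and their values are given as they stand. Plasmacytoid dendritic-like cells reached 50 cells in 2 mice, where S100a6 was at 221 and 244 CPM, S100a10 at 107 and 139 CPM and S100a4 at 23.8 and 32.8 CPM. S100a6 in these cells thus lay between the stem-like and monocyte-like gates. Mature B-like cells reached that number in 3 mice, where S100a10 was at 228 ± 22.3 CPM (SD, n = 3), near the early B-like gate. S100a8 was at 112 to 150 CPM there. These 3 mice were all from day 2, when the 5 gates described above were at 48.7 to 112 CPM. The mature B-like values thus lay at or above the top of the range of their day. Depth was not matched in this comparison, as mature B-like cells had a median of 1298 UMIs. In early B-like cells of day 2, grouped by depth, S100a8 fell as depth rose. It was at 130 CPM (median 1109.5 UMIs), 128 CPM (1300), 91.0 CPM (1692) and 62.0 CPM (4290). Whether depth accounts for the mature B-like values was not tested, and no raised level is read from them.

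Genes with a level most like each member were ranked by Pearson's r of log2(CPM + 1) over 59 sums of a gate in a mouse (11 gates, 9264 genes, gate markers left out). These sums share mice, days and depth, and r is given as a description. S100a8 and S100a9 were most like each other (r = 0.994). Next came Wfdc21 (0.967), Gm38575 (0.963) and Slco4c1 (0.960) for S100a8, and Slco4c1 (0.971), Itgb2l (0.964) and Wfdc21 (0.963) for S100a9. S100a6 was most like Rasgrp4 (0.960), 6430548M08Rik (0.948) and Fam129a (0.934), and S100a11 like Dhrs7 (0.969), Myl12b (0.963) and Lyst (0.961). S100a4 had lower values, with Stxbp6 (0.869), Ifi207 (0.861) and Msr1 (0.857), a macrophage scavenger receptor. S100a10 was most like Dennd1a (0.948), Crip1 (0.947) and Limd1 (0.930), and ran against S100a9 (-0.864) and S100a8 (-0.827). S100a13 was most like the cytoskeletal genes Tpm3 (0.919) and Arpc1b (0.880) and the glycolytic gene Pkm (0.879), and S100a1 like Ctbp2 (0.857), Plcb1 (0.814) and Cgas (0.814).

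The treatments were compared within each of the 9 gates in edgeR, with the day as a block and 2 mice per group. The 3 comparisons share their mice in pairs, and 62 of the 72 gene and gate pairs had enough counts. No S100 gene passed in any gate in any of the 3 comparisons, with edgeR or with DESeq2. For tamoxifen with rapamycin against tamoxifen, 0.186% of all gene and gate pairs passed, and 2 S100 pairs had an unadjusted p under 0.05. For late rapamycin against tamoxifen, 0.384% of all pairs passed and 5 S100 pairs had such a p. For tamoxifen with rapamycin against late rapamycin, 0.282% of all pairs passed and 9 S100 pairs had such a p. The smallest adjusted p of an S100 gene was 0.448, 0.472 and 0.427 in turn (edgeR). Among all pairs 4.93%, 8.20% and 8.11% had an unadjusted p under 0.05. The median log2 difference of the 62 S100 pairs was 0.00, 0.04 and -0.08. In the 4 neutrophil and monocyte gates alone, 2, 1 and 5 of 30119 pairs of all genes passed in turn, so few genes of any kind passed there. With 2 mice per group these values do not show that the treatments left the genes alike.

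**Figure D5:**
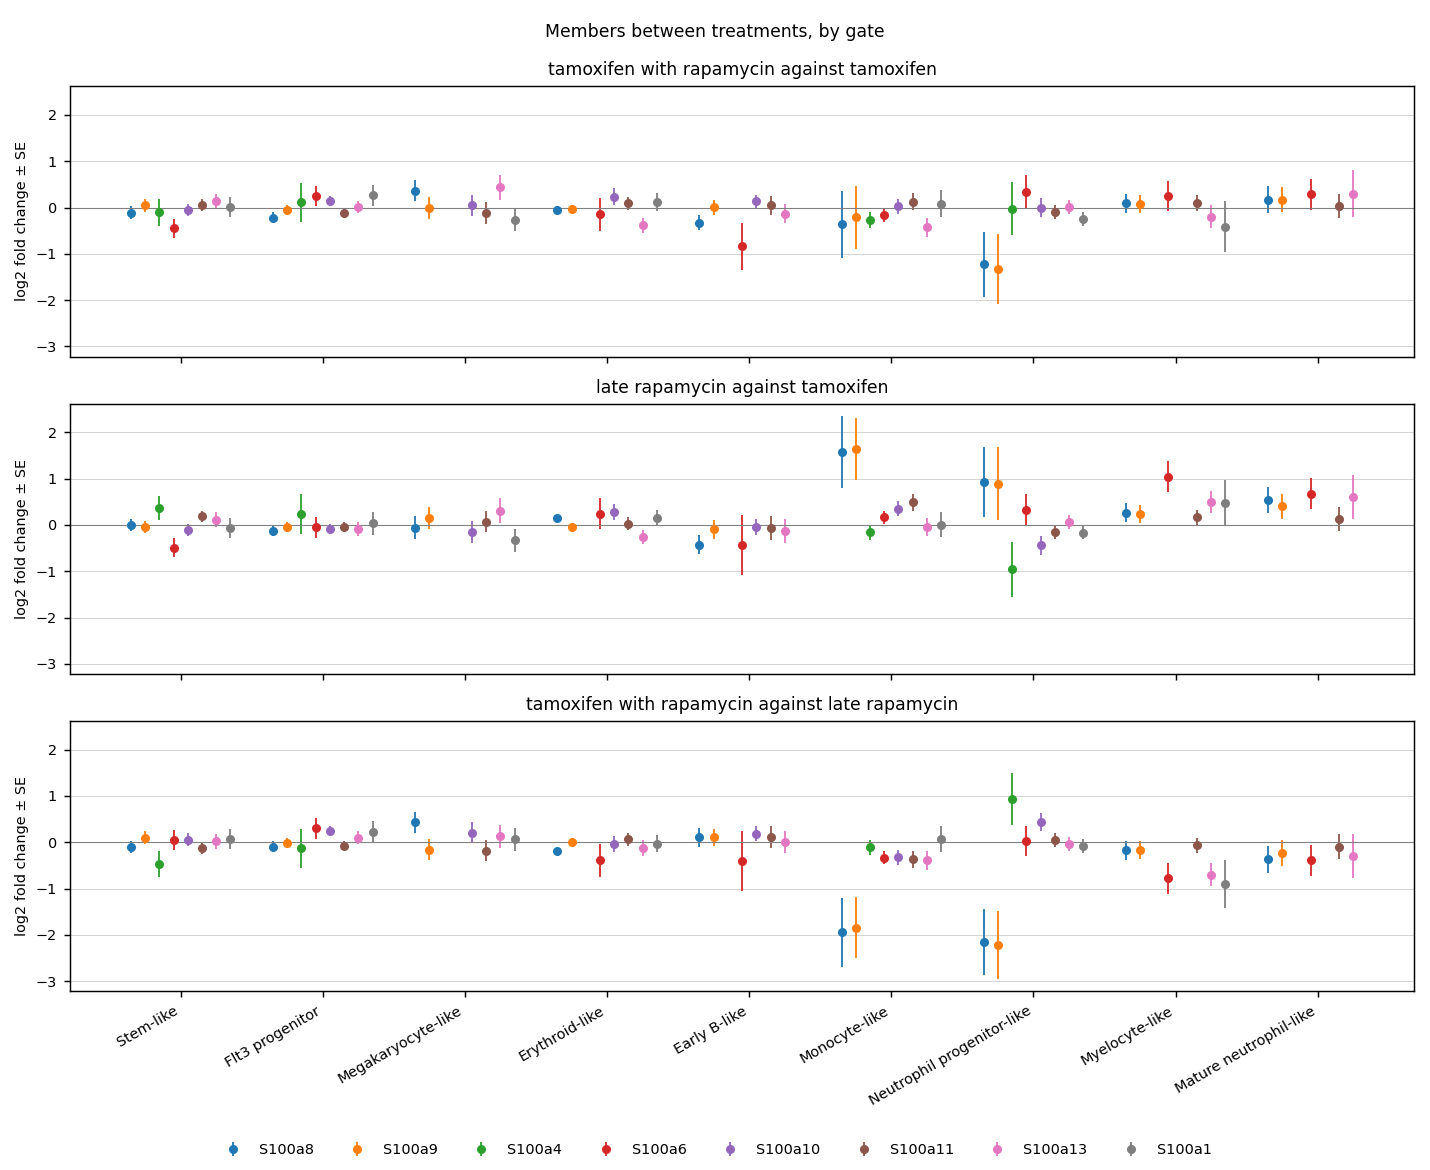
Log2 difference of each S100 gene between treatments (points, edgeR) with its standard error (bars), for the 3 comparisons and the 9 gates. None passed the threshold, and the widest bars are those of S100a8 and S100a9 in the neutrophil progenitor-like and monocyte-like gates, where 1 late rapamycin mouse stood apart.

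In the stem-like gate, S100a6 had an unadjusted p under 0.05 in 2 comparisons and passed in neither. S100a6 was at 53.2 and 47.6 CPM in tamoxifen replicates 1 and 2, at 32.0 and 39.4 CPM with added rapamycin and at 36.7 and 35.1 CPM in late rapamycin mice. Both tamoxifen mice were above the other 4, and how many of all genes separate in this way was not counted. The log2 difference was -0.45 (SE 0.205, edgeR adjusted p = 1.00) for tamoxifen with rapamycin and -0.49 (SE 0.202, edgeR adjusted p = 0.492) for late rapamycin, each against tamoxifen. Within days the first was -0.71 and -0.27 and the second -0.52 and -0.43. Both use the same tamoxifen mice. S100a13 in the erythroid-like gate was the other pair with an unadjusted p under 0.05 for tamoxifen with rapamycin against tamoxifen, at 15.6 ± 3.63 against 20.2 ± 0.400 CPM (SD, n = 2 each).

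Several differences of late rapamycin in the neutrophil and monocyte gates were large on day 1 only, the day of its replicate 1. S100a8 in the neutrophil progenitor-like gate was at 1106 and 3066 CPM in tamoxifen mice, 1110 and 835 CPM with added rapamycin, and 6974 and 1675 CPM in late rapamycin mice. The late rapamycin mouse of day 2 lay inside the tamoxifen range. Late rapamycin against tamoxifen gave -0.52 without late rapamycin replicate 1 and 2.24 without replicate 2, so the sign depended on which mouse was kept. S100a6 in the myelocyte-like gate was higher in late rapamycin by 1.04 (SE 0.334, edgeR adjusted p = 0.734), with 1.49 on day 1 and 0.28 on day 2. S100a9 in the monocyte-like gate differed by 1.63 (SE 0.670, edgeR adjusted p = 0.695), with 3.03 on day 1 and -0.83 on day 2. For S100a10 and S100a11 in the monocyte-like gate, both late rapamycin mice lay above both tamoxifen mice. S100a10 was at 817 ± 13.4 against 654 ± 54.5 CPM and S100a11 at 815 ± 135 against 596 ± 65.1 CPM (SD, n = 2 each). Neither passed (adjusted p = 0.714 and 0.651, edgeR). How many of all genes separate in this way with 2 mice per group was not counted, so nothing is read from it.

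The counts of late rapamycin replicate 1 were also examined cell by cell. Of its neutrophil progenitor-like cells 46.4% had at least 10 UMIs of S100a8 (median 7), against 7.16% to 17.0% in the other 5 mice (median 1). The 10% of cells with the most S100a8 held 60.7% of its UMIs in this mouse and 83.6% to 94.5% in the others, so the UMIs were concentrated in few cells in each mouse and less so in this one. Of its monocyte-like cells 21.1% had at least 10 (median 2), against 0.472% to 2.70%, and the top 10% held 69.7% of the UMIs, inside the 52.4% to 90.9% of the others. Of its myelocyte-like cells 64.7% had at least 10 UMIs of S100a6 (median 15), against 6.57% to 22.5% (medians 2 to 4). Other genes of the neutrophil line moved in this mouse too. In the myelocyte-like gate the granule gene Camp was at 25019 CPM against 45652 to 51519 CPM in the other mice, Ngp at 37007 against 48273 to 51496, and Lcn2 at 20444 against 14303 to 15598. In the mature neutrophil-like gate Ltf was at 3148 CPM against 299 to 936. Their part in the S100 differences of this mouse was not tested.

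Cacybp, which encodes the S100A6-binding protein CacyBP, was the 1 partner gene that passed between treatments. It was higher in late rapamycin than in tamoxifen mice in the erythroid-like gate by 0.30 (SE 0.0522, edgeR adjusted p = 0.00753) and in the megakaryocyte-like gate by 0.73 (SE 0.173, edgeR adjusted p = 0.00661), in 2 of 80 partner pairs tested. Of all gene and gate pairs, 0.384% passed in that comparison. DESeq2 called 1 of the 80 partner pairs and 0.0916% of all pairs. Late rapamycin replicate 1 is included in all these values. S100a6 did not pass in the erythroid-like gate (0.24, SE 0.332, edgeR adjusted p = 0.831) and had too few counts for a test in the megakaryocyte-like gate.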

How the data were processed

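Gene and hashtag counts of 2 droplet runs with 6 mice were used as deposited (raw UMI counts per barcode). Cell Ranger 7.0.0 and the mm10 genome stand in the submitters' processing notes, whereas version 8.0.1 of that tool made the matrices per the file headers. Whether intronic reads were counted and whether strand was used is not given in the sources used here. The files held 25058 and 21409 barcodes with 113535036 and 115505329 gene UMIs. Exactly 1 hashtag was required (21515 and 18484 barcodes), then at least 500 genes, 1000 UMIs and at most 10% mitochondrial UMIs. Predicted doublets within a mouse, 1705 and 1412, were removed by their share of known multiplets among 50 neighbours (30 components, 2000 variable genes).

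A marker was on from 10% of its mean in the top 1% of cells. Among gates whose least number of markers a cell met, it joined the one with the largest share of its list on. The 100 cells with equal shares joined no gate. Counts were summed per gate and mouse where a mouse had at least 50 cells. Tests used edgeR 4.0.16 in R 4.3.3 (quasi-likelihood, TMM, filterByExpr, two-sided) on all genes, with Benjamini-Hochberg adjustment at 0.05. DESeq2 1.42.0 was run beside it. The standard error (SE) given with an edgeR value is its absolute log2 change divided by the square root of its quasi-likelihood F. Treatments were fitted over all 3 groups, which share 1 estimate of the spread, with the day as a block. The pairing comes from the labels, which put 1 mouse of each treatment on each day. Steps between gates had the mouse as a block. Other work used Python 3.11.15, scipy 1.17.1, scikit-learn 1.9.0 and numpy 2.4.6. Ratio intervals and exact Clopper-Pearson intervals (95%) cover counting error only, as does the limit of 3 counts for a 0. The scripts were tested on simulated counts.

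All 8 genes were named in every gate, with fixed lists of 10 other S100-named genes and 14 partner or receptor genes and the 3 most alike genes by r among those with a mean of at least 10 CPM. Members and lists were chosen with earlier results of these data known.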

Additional observations from a re-analysis of the deposited data

Results flagged for a closer look

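In 11 of 72 groups of 6 mice (a gene in a gate), 1 mouse lay far from the other 5 by Dixon's gap test, and in all 11 it was late rapamycin replicate 1. Chance flags about 1 group in 20, which is 3.6 of 72, and genes and gates of a mouse are not independent. Calprotectin genes were involved in 4 of these groups. S100a8 was at 6974 CPM in the neutrophil progenitor-like gate (835 to 3066 in the others), 101100 CPM in the mature neutrophil-like gate (65819 to 73639) and 2593 CPM in the monocyte-like gate (179 to 387). S100a9 was at 1476 CPM in the monocyte-like gate (85.0 to 189). In the myelocyte-like gate S100a6 was at 4085 CPM (1432 to 1776), S100a13 at 195 CPM (104 to 127) and S100a1 at 68.7 CPM (19.7 to 34.8). In the stem-like gate S100a11 was higher at 248 CPM (185 to 198) and S100a10 lower at 127 CPM (148 to 159). In the early B-like gate, where this mouse had 56 cells, S100a4 was at 9.04 CPM from 1 UMI (0.663 to 1.63) and S100a11 at 36.2 CPM from 4 UMIs (78.7 to 87.0), so both rest on few counts.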

How the results depend on the processing

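Alternatives were other size factors, DESeq2, no low-count filter, no block, a stricter gate, stricter cells and each mouse left out. Of 537 alternative values of the 49 single steps, 516 kept their direction and call, 21 kept the direction and lost the call, and none turned. The lost calls were those of S100a10 (Flt3 progenitor), S100a13 (megakaryocyte-like and mature neutrophil-like), S100a8 (early B-like and mature neutrophil-like) and S100a9 (early B-like). Of the 13 single steps that did not pass, 4 passed under some alternative with the same direction, 13 times in all. They were S100a9 at the mature neutrophil-like step (5 alternatives, -0.35 to -0.26), S100a1 at the myelocyte-like step (4, -1.18 to -0.52), S100a11 at the monocyte-like step (3, 0.25 to 0.28) and S100a4 at the Flt3 progenitor step (stricter gate, -0.83). Without the mouse as a block, 3 S100 genes passed at the mature neutrophil-like step in place of 5. Treatment calls depended on which mice were kept. Leaving out 1 mouse in turn gave 0 to 7 S100 pairs past the threshold for tamoxifen with rapamycin against tamoxifen, 0 to 16 for late rapamycin against tamoxifen and 0 to 16 for tamoxifen with rapamycin against late rapamycin, in place of 0. These fits keep 1 residual degree of freedom (2 with all mice), and the lone mouse is assumed to vary like the others. The 16 pairs of late rapamycin against tamoxifen came without late rapamycin replicate 2 and all lay in neutrophil or monocyte gates. Of all gene and gate pairs 20.2% passed in those 4 gates and 9.80% over the 9 gates. Without late rapamycin replicate 1, 4 pairs passed (1.16% of all over the 9 gates), S100a8 and S100a9 in the neutrophil progenitor-like gate (-0.52 and -0.31), S100a8 in the monocyte-like gate (-0.89) and S100a10 in the erythroid-like gate (0.64). Without the low-count filter, 3 pairs passed for late rapamycin against tamoxifen and 5 for tamoxifen with rapamycin against late rapamycin (0.988% and 0.891% of all). With no replicate block (the pairing by day dropped), 0 S100 pairs passed in all 3 comparisons, and 52, 76 and 48 pairs of all genes passed in place of 146, 302 and 222. DESeq2 called 38, 72 and 65 of all pairs. Stricter cells left 8 of the 9 gates for the treatment tests. Thinning to 1000 in place of 2000 UMIs gave a share of early B-like cells with S100a8 of 13.5% in place of 18.2%. Levels moved by more than 1 SD in 24 of 216 alternative values, in which S100a8 and S100a9 were left out of the total or gates or cells were chosen more strictly. Depth limits S100a4, S100a10 and S100a1 in mature neutrophil-like cells, at 10, 6 and 8 UMIs in all.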
